A study of Bos taurus with 68 samples.

Results

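The clones described here are the named cDNA spots that gave the lowest ratios of cow liver over a reference RNA on 2-colour microarrays. They were chosen on the ratios themselves. In the larger of 2 tables of array values, each clone was averaged over all cow-days, and a clone was taken if it named exactly 1 gene and had a mean log2 ratio of -1.5 or less. Collagens, ribosomal proteins, transporters, chaperones and some other families were left out by name. Of 5598 clones with 1 gene, 86 (1.54%) lay at or below -1.5, and 7 of these were left out: both clones of COL1A2 and the single ones of TIMP1, COL3A1, SPARC, SLC1A3 and RPL35A. The remaining 79 clones named 73 genes. The threshold did not separate them from the next clones: TPM3 at -1.55, FILIP1L at -1.54, LOC783577 at -1.54, HMGB1 at -1.53 and the second clone of APLP2 at -1.51 lay just inside it, and GLIPR2, barely above the limit, CTBP2 at -1.48, SPHK2 at -1.48, KCNK1 at -1.47 and TPX2 at -1.46 just outside.

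The livers came from 5 cows, numbered 6934, 6983, 7079, 7186 and 7188, on days -65, -30, -14, 1, 14, 28 and 49 relative to calving. The days before calving are called prepartum here, and days 14, 28 and 49 lactation. No treatment, breed, age or diet is given in the labels, and all days share the same animals, except that cow 6983 had no day 49. Each cow-day was hybridised on 2 arrays, 1 with liver in each dye, always against a reference standard RNA whose make-up is not given in the sources used here, and 68 arrays made up 34 cow-days. The larger table held 30 cow-days: all 5 cows were there for days -65, -30, 1 and 28, but 3 for day -14, 3 for day 14 and 4 for day 49. The smaller table, from another print of the array, held the other 4.

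A value of -1 means that the clone's signal in liver was 2-fold below that in the reference, so a level says how far liver lies from the reference and not how much of the RNA there is. The labels do not name the numerator of the ratio. The direction used here, liver over reference, is only likely: with it, 0 of 10 clones of hepatocyte genes lay below the reference and their median log2 ratio was 3.79. With the ratio the other way, every sign below turns, between days too. In whole tissue, fewer cells of a type and less RNA per cell cannot be told apart. The levels are means over cow-days, ± the SD of the 5 cow means (n = 5 cows), and because they chose the clones they are descriptions without a test.

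Hepatocytes make up most of the liver's mass, and they are epithelial cells that hold keratin filaments and divide rarely. Vimentin filaments, tropomyosins, annexins, S100 proteins and caveolin are typical of mesenchymal, endothelial and migrating cells, and of most cells grown in culture. Stathmin, PCNA, its clamp-associated factor PCLAF, the histone variant H2A.Z and the HMGB proteins are abundant in dividing cells. Many of the genes below are therefore known for cell shape, adhesion, matrix or the cell cycle rather than for liver metabolism.

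The median level of the 79 clones was -2.07, against 0.01 for all clones with 1 gene. All 79 were measured in 3 or more cows every day, the filter for testing, and 77 were measured in all 30 cow-days. All 79 lay below 0 in 24 of the 30 cow-days, and in no cow-day did fewer than 76. By known role they comprised 14 clones of the cytoskeleton with a median of -2.04, 16 of membrane and adhesion proteins with -2.26, 11 of secreted and matrix proteins with -2.25 and 9 each of chromatin and cell-cycle proteins (-2.12) and enzymes (-2.18). Annexins, an S100 protein and a galectin gave 4 clones with the lowest median, -2.74. Another 7 belonged to signalling and transcription (-2.07), 3 to RNA binding (-1.95) and 6 to no common role (-1.67).

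**Figure D1:**
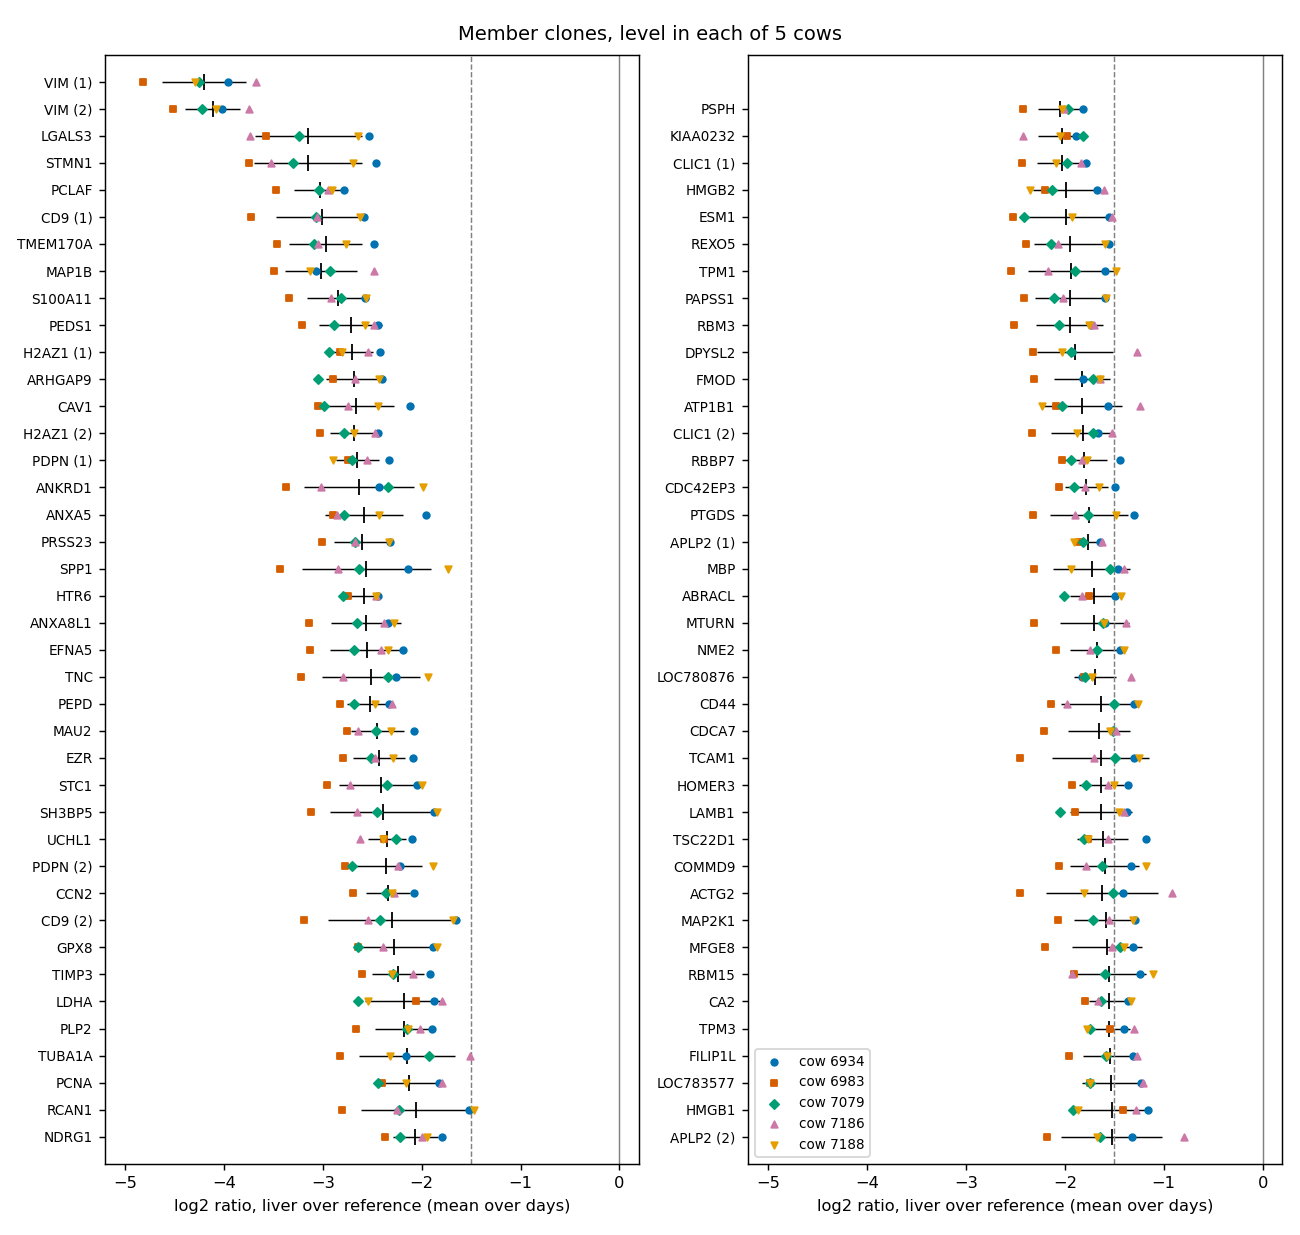
Log2 ratio of liver over reference for the 79 member clones, ordered by level from top left, with 1 marker for each of 5 cows (mean over its days). The tick and bar give the mean and SD of the cows, the dashed line the threshold of -1.5. VIM stands apart at the top, cow 6983 (square) is the lowest cow for 58 clones, and single cows of the last clones lie above the threshold, as the rule used only the mean over cow-days.

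Vimentin (VIM), the intermediate filament protein of mesenchymal cells, was the lowest gene. Its clones, in cows 6934, 6983, 7079, 7186 and 7188, the order used throughout, lay at -3.96, -4.81, -4.25, -3.68 and -4.29 for the first and -4.02, -4.51, -4.22, -3.74 and -4.08 for the second. The means were -4.19 ± 0.42, which is 18.2-fold below the reference, and -4.10 ± 0.28. Single cow-days of the first clone ran from -5.31 to -2.27, so VIM was over 4-fold below the reference in 30 of 30. Microtubule proteins followed. Stathmin (STMN1), which destabilises microtubules and is highest in proliferating cells, lay at -2.46, -3.74, -3.30, -3.52 and -2.69 in the 5 cows, a level of -3.18 ± 0.55. MAP1B, a microtubule-associated protein best known from neurons, lay at -3.07, -3.49, -2.92, -2.48 and -3.12 (-2.98 ± 0.36). For STMN1 cow 6934 was the least low and 6983 the lowest, while for MAP1B cow 7186 was the least low. The alpha-tubulin TUBA1A was at -2.13 ± 0.48 and DPYSL2, a tubulin-binding protein of growing axons, at -1.87 ± 0.39.

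On the actin side, ARHGAP9, a GTPase-activating protein, lay at -2.40, -2.90, -3.04, -2.67 and -2.43 (-2.70 ± 0.28). Ezrin (EZR), which ties actin to the membrane, was at -2.45 ± 0.26, tropomyosins TPM1 at -1.96 ± 0.43 and TPM3 at -1.55 ± 0.21, and the smooth muscle actin ACTG2 at -1.60 ± 0.57. ACTG2 varied most over cows of this group, from -0.92 in cow 7186 to -2.46 in cow 6983. CDC42EP3, an effector of the Cdc42 switch, was at -1.80 ± 0.22, ABRACL at -1.72 ± 0.24 and FILIP1L at -1.54 ± 0.27.

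The calcium- and sugar-binding proteins were led by galectin 3 (LGALS3), which binds beta-galactosides and is secreted by macrophages and many epithelia. It lay at -2.53, -3.58, -3.24, -3.73 and -2.65 in the 5 cows (-3.19 ± 0.54), with cow-days from -4.82 to -1.52. S100A11, a calcium-binding partner of annexins, lay at -2.58, -3.34, -2.82, -2.92 and -2.57 (-2.86 ± 0.32). The phospholipid-binding annexin ANXA5 lay at -1.96, -2.89, -2.78, -2.86 and -2.43 (-2.62 ± 0.40), with cow 6934 the least low. ANXA8L1, another annexin, lay at -2.34, -3.14, -2.66, -2.38 and -2.28 (-2.56 ± 0.35).

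Among membrane proteins, the tetraspanin CD9, which organises adhesion and fusion at the cell surface, was the lowest. Its first clone lay at -2.58, -3.73, -3.07, -3.06 and -2.62 (-3.03 ± 0.46) and its second at -1.65, -3.19, -2.42, -2.55 and -1.69 (-2.33 ± 0.65), with cow 6983 the lowest in both. TMEM170A, a protein of the endoplasmic reticulum and nuclear envelope, lay at -2.48, -3.47, -3.09, -3.05 and -2.76 (-2.99 ± 0.37). Caveolin 1 (CAV1), the coat protein of caveolae, lay at -2.12, -3.05, -2.99, -2.74 and -2.44 (-2.69 ± 0.39). Podoplanin (PDPN), a mucin-like protein of lymphatic endothelium, lay at -2.33, -2.75, -2.71, -2.56 and -2.90 (-2.66 ± 0.21), and its second clone was at -2.37 ± 0.37. The serotonin receptor HTR6 lay at -2.44, -2.74, -2.80, -2.46 and -2.46 (-2.58 ± 0.17), the narrowest spread of cows among the 20 lowest genes, and the ephrin EFNA5, a guidance ligand, at -2.19, -3.13, -2.69, -2.41 and -2.34 (-2.56 ± 0.37). Further members were PLP2 at -2.18 ± 0.29, the chloride channel protein CLIC1 at -2.03 ± 0.26 and -1.82 ± 0.31, the sodium pump subunit ATP1B1 at -1.82 ± 0.41, the amyloid precursor relative APLP2 at -1.77 ± 0.13 and -1.51 ± 0.51, myelin basic protein (MBP) at -1.73 ± 0.39 and the hyaluronan receptor CD44 at -1.66 ± 0.40.

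Of the secreted and matrix proteins, the serine protease PRSS23 lay at -2.32, -3.00, -2.68, -2.68 and -2.33 (-2.61 ± 0.29). Osteopontin (SPP1), a matrix protein that in liver marks bile duct cells, lay at -2.14, -3.44, -2.64, -2.84 and -1.74 (-2.58 ± 0.65), the widest spread of cows of all members. Tenascin C (TNC), a matrix protein of repair, was at -2.53 ± 0.50, stanniocalcin (STC1), a glycoprotein hormone, at -2.44 ± 0.42 and the matricellular protein CCN2 at -2.35 ± 0.22. TIMP3, an inhibitor of metalloproteinases, was at -2.25 ± 0.26, ESM1, a proteoglycan of endothelium, at -1.99 ± 0.47 and fibromodulin (FMOD), which binds collagen fibrils, at -1.82 ± 0.28. The prostaglandin synthase PTGDS (-1.78 ± 0.40), the laminin chain LAMB1 (-1.64 ± 0.31) and the apoptotic-cell opsonin MFGE8 (-1.58 ± 0.36) were nearer to the threshold.

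The chromatin and cell-cycle clones were led by PCLAF, which binds PCNA at replication forks and lay at -2.79, -3.47, -3.04, -2.95 and -2.90 (-3.04 ± 0.26). The histone variant H2AZ1 lay at -2.42, -2.82, -2.94, -2.54 and -2.80 (-2.71 ± 0.21) and, by its second clone, at -2.68 ± 0.24, so its 2 clones differed by less than the spread of cows. The cohesin loader MAU2 was at -2.47 ± 0.27, the replication clamp PCNA at -2.12 ± 0.31, the DNA-bending proteins HMGB2 and HMGB1 at -1.99 ± 0.33 and -1.53 ± 0.34, the histone chaperone RBBP7 at -1.82 ± 0.23 and CDCA7, a regulator linked to the cell cycle, at -1.66 ± 0.31.

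Enzymes were led by PEDS1, the desaturase that makes plasmalogens, at -2.44, -3.21, -2.89, -2.49 and -2.57 (-2.72 ± 0.32). The peptidase PEPD was at -2.52 ± 0.23, the ubiquitin hydrolase UCHL1 of neurons at -2.37 ± 0.19, the peroxidase GPX8 at -2.30 ± 0.39 and LDHA, the lactate dehydrogenase subunit of glycolytic tissues, at -2.18 ± 0.39. The serine-synthesis phosphatase PSPH lay at -2.06 ± 0.22, the sulfate donor synthase PAPSS1 at -1.96 ± 0.36, the nucleotide kinase NME2 at -1.68 ± 0.28 and carbonic anhydrase CA2 at -1.57 ± 0.20. UCHL1 lay above 0 in 1 of its 30 cow-days, at 0.76. Outside the enzymes, the highest cow-day was also above 0 for ACTG2 (0.51), the second APLP2 clone (0.29), TUBA1A (0.23) and MAP2K1 (0.03). In signalling, ANKRD1, a target gene of the Hippo pathway, lay at -2.43, -3.38, -2.34, -3.02 and -1.99 (-2.65 ± 0.56), followed by SH3BP5 at -2.42 ± 0.54, the calcineurin regulator RCAN1 at -2.08 ± 0.56, NDRG1 at -2.07 ± 0.23, the scaffold HOMER3 at -1.64 ± 0.22, TSC22D1 at -1.63 ± 0.26 and the kinase MAP2K1 at -1.60 ± 0.32. The RNA-binding members were REXO5 (-1.97 ± 0.36), the cold-inducible RBM3 (-1.95 ± 0.34) and RBM15 (-1.58 ± 0.37). The rest were KIAA0232 (-2.05 ± 0.24), MTURN (-1.69 ± 0.35), LOC780876 (-1.68 ± 0.21), TCAM1 (-1.65 ± 0.49), COMMD9 (-1.61 ± 0.35) and LOC783577 (-1.54 ± 0.29).

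The order of neighbouring genes was not resolved by these cows. VIM lay below LGALS3, the next gene, in 4 of 5 cows, the exception being cow 7186 with -3.68 for VIM and -3.73 for LGALS3. Each of the 20 lowest genes overlapped with the gene next in order in its range of cow means.

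The smaller table held 4 cow-days that played no part in the choice: cow 6934 before (day -14) and after calving (day 14), cow 7079 on day -14 and cow 7188 on day 14. There, 65 of the 79 clones (82.3%) lay at or below -1.5, against 5.63% of all 5598 clones with 1 gene, and 73 (92.4%) lay below 0, against 52.4%. The median of the members was -2.60, and their medians in single cow-days ran from -2.53 to -2.84. The tables came from different prints, and more of all clones lay at or below -1.5 in the smaller one (5.63%, against 1.54% in the larger). That 55 members were lower in the smaller table is therefore given without a test, and the same count over all clones is not given. VIM was again the lowest, at -4.49, -5.45, -5.38 and -6.02 in the order of cow-days just given. STMN1 lay at -4.36, -4.19, -4.64 and -4.62, LGALS3 at -2.39, -4.21, -4.12 and -4.48, S100A11 at -2.57, -4.42, -3.95 and -4.45 and CD9 at -2.69, -3.17, -3.13 and -2.98. All of these values were below -2, and for VIM, LGALS3, S100A11 and CD9 the day -14 sample of cow 6934 was the least low.

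Others stayed at low values with a wide gap from the larger table, as for CCN2, at -4.36 in the smaller table against -2.35, PDPN, at -4.28 against -2.66, and the second CD9 clone, at -4.15 against -2.33. The members at or above 0 there were 6. HTR6 lay at 1.75, 1.03, 2.03 and 0.59 in the 4 cow-days, PEPD at 0.60, 0.51, 0.65 and 0.11 and HOMER3 at 0.28, 0.69, 0.84 and 0.70, so these 3 were above 0 in all 4. MFGE8, at 0.29, -0.11, 0.31 and -0.07, SH3BP5, at -0.06, 0.23, 0.31 and -0.11, and EFNA5, at 0.39, -0.29, -0.35 and 0.49, lay around 0. REXO5 (-0.50), COMMD9 (-0.50), FMOD (-0.78) and TIMP3 (-0.95) were below 0 but above -1. Of the 129 clones at or above 1.5 in the larger table, 4 lay at or below 0 in the smaller one. Why the same clones differ between the 2 prints was not tested. Over all 5598 clones the tables correlated at r = 0.68 (0.49 by ranks) across clones, which are not independent replicates and share the cows and the reference design.

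**Figure D2:**
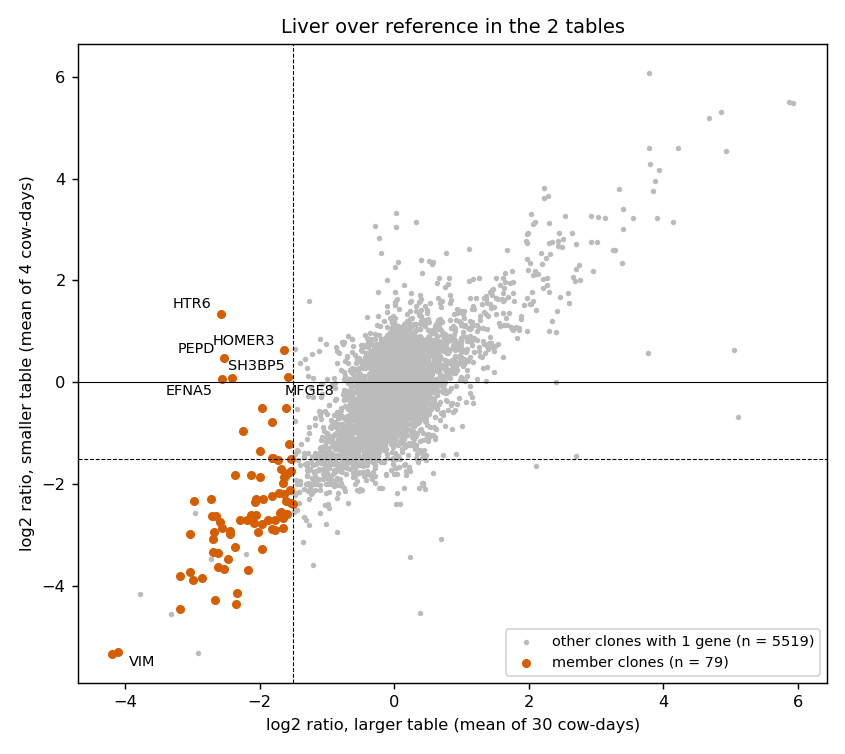
Mean log2 ratio of each clone with 1 gene in the larger table (30 cow-days) and the smaller table (4 cow-days), members in orange and other clones in grey, with dashed lines at -1.5. Most members lie low in both, with both VIM clones at the bottom left, and 6 members named in the plot lie at or above 0 in the smaller table.

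Several genes were spotted as more than 1 clone, and these did not always share the level. For 41 of the 73 genes there was a single clone. In 5 of the 32 others (VIM, H2AZ1, PDPN, CLIC1 and APLP2) every clone was a member. The other 27 genes had 32 clones outside the group, of which 21 lay below 0 and 11 above it, with a median of -0.15. Only 4 of the 32 were at or below -1: TPM3 (-1.44), CDC42EP3 (-1.30), LOC783577 (-1.17) and CDCA7 (-1.02). Being the clones that the threshold left, they had to lie above -1.5, so this count describes the size of the gap and not its cause.

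The gap was wide for markers too. The second clone of LGALS3 lay at -0.36 against -3.19, and at -0.25 against -3.80 in the smaller table, so the gap recurred there. The third clone of CD9 lay at -0.56 (-1.10 in the smaller table). SPP1 gave -2.58 and -0.12, with -2.74 and -0.10 in the smaller table. TMEM170A gave -2.99 and 0.74, again with a like pair of -3.88 and 0.81. Clones of ANXA5 (-2.62 and -0.54), TNC (-2.53 and -0.26), MAU2 (-2.47 and 0.04) and MBP (-1.73, 0.09 and 0.99) were apart in the same way. The 2 clones of SH3BP5, in contrast, were at -2.42 and -0.05 in the larger table but at 0.09 and 0.55 in the smaller, and those of HOMER3 at -1.64 and 0.07 against 0.63 and 0.25. In both genes the member clone was above 0 in the other print. A further set ran the other way: non-member clones of ATP1B1, HMGB2 and TPM3, measured in 25, 21 and 24 cow-days, lay at 0.24, 0.08 and 0.41 in the larger table and at -3.43, -2.39 and -1.98 in the smaller one. A statement about 1 of these genes therefore holds for the clone named, and whether a clone carries the right gene name was not tested.

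**Figure D3:**
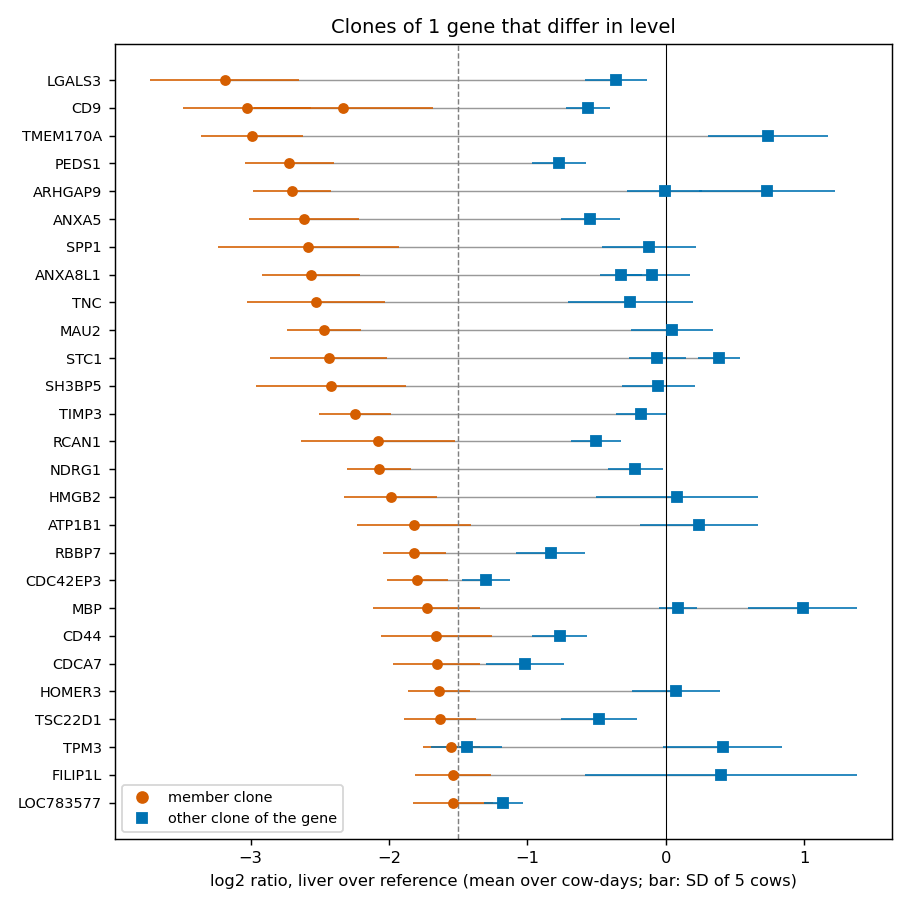
Log2 ratio of every clone of the 27 genes with both member clones (circles) and other clones (squares), as the mean over cow-days with the SD of 5 cows. Of the 32 squares, 4 lie at or below -1, and 19 lie between -0.5 and 0.5.

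Over the 7 days the members stayed low. The median of the 79 clones, averaged over cows, was -2.40 ± 0.28 (SD, n = 5) at day -65, then -1.97 ± 0.83 at day -30 (n = 5), -2.26 ± 0.51 at day -14 (n = 3) and -2.44 ± 0.50 at day 1 (n = 5). In lactation it was -1.93 ± 0.52 at day 14 (n = 3), -2.03 ± 0.39 at day 28 (n = 5) and -1.95 ± 0.45 at day 49 (n = 4). The days overlapped throughout. In the same order of days VIM lay at -4.62 ± 0.21, -3.90 ± 0.74, -3.91 ± 1.45, -4.62 ± 0.80, -3.86 ± 1.14, -4.04 ± 0.33 and -4.11 ± 0.80, S100A11 at -2.91 ± 0.26, -2.61 ± 0.97, -3.04 ± 0.66, -3.53 ± 0.48, -2.91 ± 0.67, -2.58 ± 0.63 and -2.43 ± 0.96, and STMN1 at -3.65 ± 0.62, -2.92 ± 1.57, -3.71 ± 0.10, -3.55 ± 0.48, -3.01 ± 0.88, -2.68 ± 0.93 and -2.83 ± 1.16. The spread of STMN1 on day -30 came with cow 6934, at -0.49, while the other cows lay between -4.24 and -2.27. The value of -2.27, of cow 7188, was the mean of -0.44 with liver in Cy3 and -4.10 with liver in Cy5.

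No member passed limma's F test over the days (0 of 79 at an adjusted p under 0.05, against 0.0189% of the 5280 clones tested, which is 1 clone). At an unadjusted p under 0.05 there were 2 members, ARHGAP9 and HTR6, or 2.53% against 5.25% of all clones. The smallest adjusted p among members was 0.92. With arrays weighted by their noise, an alternative whose weights did not fully converge, 5 members passed (ARHGAP9, HTR6, PEPD, ANXA5 and PEDS1, adjusted p from 0.031 to 0.049 in limma), against 4.94% of all clones.

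For the time around calving, day 1 was set against day -30, as both have all 5 cows. No member passed (0 of 79 in limma, against 0.0189% of all clones), and 16 had an unadjusted p under 0.05, all of them lower on day 1, which is 20.3% of members against 7.08% of all clones in that direction and 8.37% in either. The median estimate of the members was -0.45, against -0.06 for all clones tested, and 71 of 79 (89.9%) were below 0, against 57.1%. TPM3 had an estimate of -0.96 ± 0.33 (SE) and CLIC1 of -0.98 ± 0.34, with adjusted p of 0.44 in limma for both. REXO5, TUBA1A and ACTG2 came next, with estimates of -0.82, -1.15 and -1.12 (adjusted p = 0.53 in limma). For S100A11 the estimate was -0.92 (95% interval -1.77 to -0.08), lower in 4 of 5 cows, with an adjusted p of 0.58 in limma. Cytoskeletal members had a median of -0.66 (13 of 14 below 0) and membrane proteins of -0.62 (15 of 16), while the annexin, S100 and galectin clones had -0.10 (3 of 4).

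The cows did not share this difference. Between day -30 and day 1 the members' median went from -0.71 to -2.66 in cow 6934, with 1 of 79 clones higher on day 1, and from -1.56 to -2.85 in cow 7188, with 2 of 79 higher. The day -30 value of cow 7188 is the mean of unlike arrays, at -1.10 with liver in Cy3 and -2.135 with liver in Cy5. In cow 7186 the members' median went the other way, from -2.63 to -1.67, with 74 of 79 higher. Cows 6983 (-2.65 and -2.80) and 7079 (-2.32 and -2.22) lay between, with 36 and 41 clones higher. Nearly all members thus differed in 1 direction in 3 cows, lower on day 1 in 2 and higher in 1. The same counts over all clones are not given for single cows, so whether this was particular to the members is not known. The slope of a cow-day's ratios on the mean profile of all clones, a measure of the array's scale, was 0.59 for cow 6934 on day -30 and rose by 0.53 to day 1, and in cow 7186 it fell by 0.47. In cow 7188 it rose by 0.20, while the median of the clones far above the reference (a mean log2 ratio of 1.5 or more) went in that cow from 2.05 to 1.499. Over the 30 cow-days the members' median correlated at r = -0.84 with that slope, in which the members themselves take part, and at r = -0.33 with the median of the clones far above the reference. Without cow 6934 the median estimate was -0.12, without cow 7186 it was -0.75, without cow 7188 -0.28, without the 2 cow-days with a slope under 0.7 it was -0.23, and with arrays scaled to 1 spread it was -0.02. With each cow-day divided by its slope it was -0.47. From arrays with liver in Cy3 alone it was -0.66, and from those with liver in Cy5 alone -0.25. The part of the array scale in each clone's difference was not tested.

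**Figure D4:**
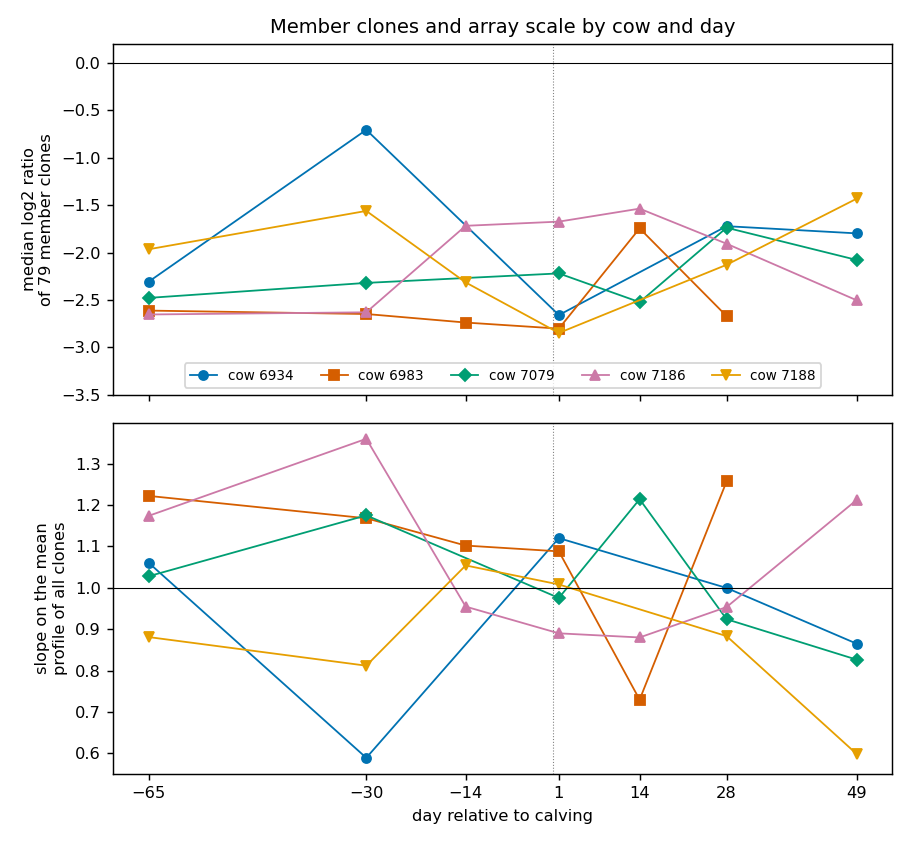
Upper plot: median log2 ratio of the 79 member clones on each day, 1 line per cow. Lower plot: slope of the same cow-day on the mean profile of all clones. Cow 6934 on day -30, at -0.71 with a slope of 0.59, is the highest point above and the lowest below, and cows 6934 and 7186 cross between day -30 and day 1.

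From day 1 to day 28 no member passed either (0 of 79 in limma, against 0.0% of all clones), and 11 had an unadjusted p under 0.05, all higher on day 28 (13.9%, against 5.15% of all clones in that direction and 7.82% in either). The median estimate was 0.35, against 0.06 for all clones, and 16 of 79 (20.3%) were below 0, against 38.1%. This comparison uses the same day 1 samples as the one before, so that they are not independent. HTR6 had an estimate of 1.07 ± 0.38 (SE), ARHGAP9 of 1.09 ± 0.41 (both with an adjusted p of 0.54 in limma), REXO5 of 0.83, PEDS1 of 0.92 and CLIC1 of 0.82. By cow, the members' median differed by 0.94 in cow 6934, 0.13 in 6983, 0.48 in 7079, -0.23 in 7186 and 0.72 in 7188. From arrays with liver in Cy3 the median estimate was 0.72, and from those with liver in Cy5 it was -0.0014. On day 28 the arrays of a cow were unlike in cows 6934, 7079, 7186 and 7188. The array with liver in Cy3 was the higher one in the first 3 and the lower one in cow 7188. Whether the dye or single arrays made the 2 estimates differ was not tested. With arrays scaled to 1 spread the median estimate was 0.02, and with each cow-day divided by its slope it was 0.31.

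Lactation was compared with the prepartum days as the mean of days 14, 28 and 49 against the mean of days -65, -30 and -14. Again no member passed (0 of 79 in limma, against 0.0% of all clones), and 4 had an unadjusted p under 0.05, all higher in lactation (5.06%, against 1.38% of all clones in that direction and 3.86% in either). These were ANXA5, with an estimate of 0.45 ± 0.17 (SE) and higher in 5 of 5 cows, ARHGAP9 at 0.67 ± 0.27, LGALS3 at 0.64 ± 0.28 and LDHA at 0.56 ± 0.26, each higher in 4 of 5, with an adjusted p of 1.00 in limma. RCAN1 was next at 0.54. The counts of cows rest on the days each cow had in the larger table, which were not the same in all cows. For VIM the estimate was 0.08 (95% interval -0.48 to 0.64). The members' median estimate was 0.23, against -0.01 for all clones, and 12 of 79 (15.2%) were below 0, against 52.2%. It turned to -0.17 when the 5 cow-days with unopposed dye pairs were left out and to -0.04 when each cow-day was divided by its slope.

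Between cows, 3 members differed in limma's F test, which is 3.80% of the 79 against 15.8% of all clones. They were the second clone of APLP2 at -1.32, -2.18, -1.65, -0.80 and -1.67 in the 5 cows (adjusted p = 0.041), PTGDS at -1.30, -2.32, -1.77, -1.90 and -1.48 (adjusted p = 0.047) and ANXA5 at the values given above (adjusted p = 0.049, all in limma). For APLP2 the highest cow was 7186, and for PTGDS and ANXA5 it was 6934, while 6983 was the lowest in all 3. ACTG2 and SH3BP5 came next (adjusted p = 0.054 and 0.071 in limma). These calls were not stable: APLP2 kept its call in 9 of 16 alternatives (adjusted p from 0.0026 to 0.30 in limma). ANXA5 kept it in 5 of 16 (0.026 to 0.31) and PTGDS in 5 of 16 (0.022 to 0.42). Without cow 6934, 6983 or 7186 no member passed, against 7.67%, 0.0189% and 0% of all clones in that order. Calls thus fell among all clones too, and 3 members are too few to compare the losses. With each cow-day divided by its slope, 14 members differed (17.7%, against 17.4% of all clones), and with arrays scaled to 1 spread also 14 (against 10.4%). Cow 6983 was the lowest of the 5 cows for 58 of the 79 clones, against 32.3% of all clones measured in all 5 cows, and its mean slope was 1.09, the highest of the cows. Cow 6934 was the least low for 35 members, 7186 for 24 and 7188 for 19. The share of all clones highest in each cow was not counted, so these counts describe the members without a comparison. The mean of cow 6934 also holds its day -30 sample, with a slope of 0.59.

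The pair of arrays of a cow-day gives the level separately for each dye. Taken as liver in Cy5 minus liver in Cy3, 34 of 79 members differed (43.0%, against 73.0% of all clones, in limma over 5 cows), 23 of them with a higher ratio when liver was in Cy5 (29.1%, against 39.8% of all clones). HMGB1 differed by 0.76, TPM3 by 0.79, HTR6 by 0.78, the first clone of APLP2 by 0.54 and PEDS1 by 0.68 (adjusted p = 0.00012 to 0.0011 in limma). The largest dye differences, singled out after their values were seen, ran the other way. ANKRD1 differed by -1.32 (-2.01 with liver in Cy3 and -3.29 with liver in Cy5), the second clone of PDPN by -1.22 and ANXA8L1 by -1.15. VIM was at -4.47 with liver in Cy3 and -3.92 with liver in Cy5. For TPM3, at -1.96 and -1.14, and HMGB1, at -1.92 and -1.15, the arrays with liver in Cy5 alone would have kept the clone out.

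The members' medians of the 2 arrays lay within 0.5 of each other in 21 of 30 cow-days and differed by more than 1 in 6. Of these 6, cow 7188 on day -30 gave -1.10 with liver in Cy3 and -2.135 with liver in Cy5. Cow 6983 on day 14 gave -2.53 with liver in Cy3 and -0.87 with liver in Cy5. The other 4 were on day 28. In cows 6934, 7079 and 7186 the array with liver in Cy3 gave -0.81, -0.75 and -0.84 on that day and the other gave -2.59, -2.81 and -3.02. In cow 7188 the order was turned, with -3.04 in Cy3 and -1.23 in Cy5, and cow 6983 had -3.18 and -2.32. In 4 of 5 cows the day 28 value is therefore the mean of 2 unlike arrays. On 5 cow-days the exchanged pair did not correlate below 0 before turning, and there the members' median was -1.74, against -2.32 on the other 25. The correlation ran from 0.03 to 0.18 on those 5 and from -0.53 to -0.0026 on the other 25, so some of these pairs hardly opposed. In the smaller table it ran from -0.67 to -0.45.

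**Figure D5:**
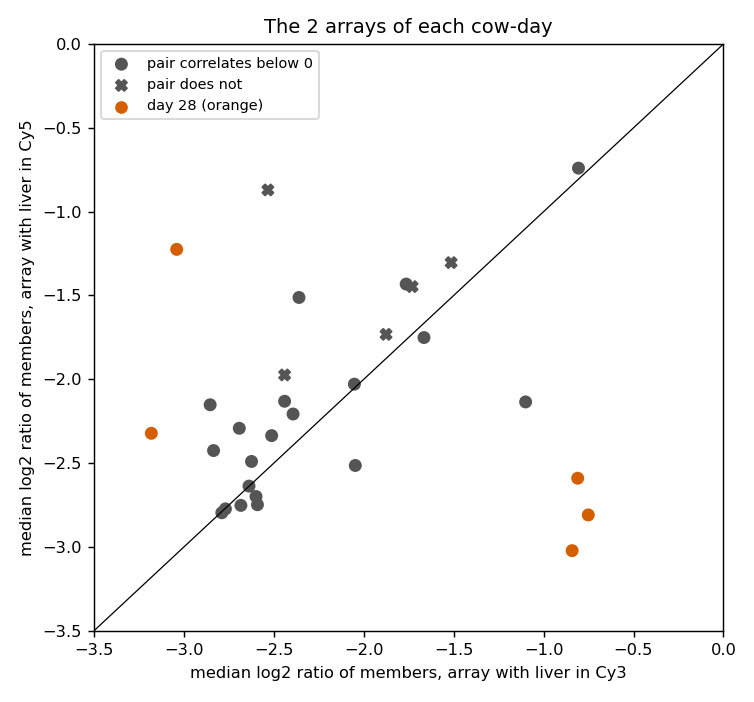
Median log2 ratio of the 79 member clones on the array with liver in Cy3 and on the array with liver in Cy5 of the same cow-day, with the line of equal values. Orange marks day 28, of which 3 cow-days lie far below the line and 1 far above it, and crosses mark the 5 cow-days whose pair did not oppose.

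After the cow and day means were taken out, the cow-day values of member clones moved together, with a median pairwise r of 0.63 over 30 cow-days. All clones of a cow-day share its pair of arrays, so that these correlations hold array scale as well. No median r of other clones is given here, so the value does not set the members apart. For VIM the likest of all clones with 1 gene was its own second clone (r = 0.97), then CS, RHOA and the members TUBA1A and ACTG2 (r = 0.90 to 0.92). For STMN1 the likest were TNC, SH3BP5 and MAU2 (r = 0.94 for each) and both CD9 clones (0.93). For LGALS3 they were STMN1, SH3BP5, RBM15 and CD9 and, outside the group, SPHK2 (r = 0.89 to 0.90). For S100A11 TMEM170A and TIMP1 were the likest (both 0.94), and for CD9 TMEM170A and SH3BP5 (both 0.96). Of the member genes, GPX8 and ESM1 are near each other in the genome, with 3 protein-coding genes between them, and CD44 and COMMD9, with 5.

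Lists of genes from the same pathways were drawn up from general knowledge, but with earlier results of these data known. They describe how far low ratios ran in these groups, and their counts include the members. Of 62 clones of actin and actin-binding genes, 50 lay below 0, with a median of -0.55, but 4 reached -1.5, all of them members (EZR, TPM1, ACTG2 and TPM3). Histone, HMG and chromatin genes had 22 of 24 clones below 0 and a median of -0.80, and genes of the cell cycle and DNA replication 28 of 32 with a median of -0.43. Over all clones with 1 gene 2726 of 5598 lay below 0. Glycolysis genes were below 0 in 18 of 21 clones (-0.42), with LDHA the lowest, and tubulin and microtubule-binding genes in 17 of 19 (-0.34). The low levels were thus shared in sign by these groups and in size by few of their genes.

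Other families were mixed. Annexins and S100 proteins had 13 of 21 clones below 0 and ran from -2.86 for S100A11 to 2.12, and the 6 galectin clones from -3.19 for LGALS3 to 0.92. Adhesion genes had 26 of 48 clones below 0 with a median of -0.03, although CD9, CAV1 and CD44 are among them, and other matrix genes 23 of 40 (-0.11), with SPP1, TNC, CCN2, TIMP3, FMOD and LAMB1 as members. Lysosomal proteases and inhibitors had 7 of 30 clones below 0 (median 0.22). On day 1 against day -30 none of these lists held a clone past the adjusted threshold.

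Markers of the liver's other cells gave no single pattern. Stellate cell and fibroblast genes had 11 of 13 clones below 0, a median of -0.97 and 5 at or below -1.5, all of them among the collagens, TIMP1 and SPARC that the rule left out. None of the 10 endothelial clones reached -1.5 (median 0.53; the members ESM1, PDPN and CAV1 were not on that list), nor did any of the 17 clones of macrophage and Kupffer cell genes, which all lay above 0 (median 1.32), nor the 11 of lymphocytes and neutrophils (0.34). Of the 9 bile duct clones SPP1 alone reached -1.5, by 1 of its 2 clones. The single erythroid clone, CA2, reached it too. Brain and muscle genes stand for tissues outside the liver. Of 9 clones of brain genes 3 reached -1.5 (MAP1B, UCHL1 and MBP, the last by 1 of its 3 clones), and of 4 clones of muscle genes 0 did. The ratio has no zero, so it cannot say that such a cell's RNA is absent from liver, and the part of any cell type in the low levels was not tested.

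The spots behind these values were nearly complete. The members had 9435 spot values, and 45 were missing (0.475%, against 3.37% over all rows), and the 2 spots of a clone differed by a median of 0.22, as over all clones. Ratios of very weak spots can equal the log2 of small whole-number ratios. The members had 314 values of size 4.5 or more, 3.33% of their values, and 1.59% of these had that form to 3 decimals, against 29.5% of all such values. Of the members' smaller values 11.98% had it, against 33.4% over all rows. No intensities were used, so how far the liver signal lay above background is not known for any of the clones.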

How the data were processed

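Liver RNA of 5 cows and a reference standard RNA were labelled with Cy3 or Cy5 and hybridised to cDNA arrays; per the labels, images came from a Scanarray scanner and GenePix software. Each deposited value is the log2 ratio of a spot's dye channels. The sources used here do not give background subtraction, normalization or the numerator of the ratio, and no intensities were used, so the number of arrays limits the precision. Each array was centred on its median (array medians -0.95 to 0.64), arrays with liver in Cy3 had their sign turned, and the 2 spots and the dye pair were averaged. Clones were named by the platform's annotation, with symbols updated through gene identifiers for 5591 of 5693 clones, and 5598 named 1 gene.

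The fits used limma 3.58.1 in R 4.3.3 on 5280 clones with values in at least 3 cows a day, with terms for day and cow, the cow being the replicate block since the same animals were sampled repeatedly. Benjamini-Hochberg adjustment ran over all clones tested, tests were 2-sided, and an adjusted p under 0.05 passed. P-values measure the spread left within these cows and arrays. The fits were tested on simulated data. The members and gene lists were chosen with earlier results of these data known. Named clones were the markers VIM, STMN1, LGALS3, S100A11 and CD9, the 20 lowest genes, the 5 smallest p of each test, the 5 clones on each side of the threshold and the members; the roles were assigned after the members were seen. Centring, scaling, each dye alone, joined tables, filters, array weights and leaving out each cow were tried as alternatives. No sequences or coordinates are given here.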

Additional observations from a re-analysis of the deposited data

Results flagged for a closer look

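Of 50 groups of 4 or 5 cows examined (the cow means of the 20 lowest genes, and single days of the 5 markers and of the members' median), 2 held a cow far from the others, and chance alone sets apart about 5% of such groups. On day 28 STMN1 lay at -4.30 in cow 6983, while the other 4 cows lay between -2.54 and -1.99. On the same day CD9 lay at -4.33 in cow 6983, with the others between -2.54 and -2.02. In the other 4 cows the 2 arrays of that day were unlike, and the higher one did not hold liver in the same dye in all 4. STMN1 in cow 6983 was at -4.73 with liver in Cy3 and -3.87 with liver in Cy5. In cow 6934 it was at -0.83 and -3.97, in cow 7079 at -0.10 and -3.87, and in cow 7186 at -0.51 and -4.57. In cow 7188 it was at -3.76 with liver in Cy3 and -0.59 with liver in Cy5. Thus each of the other 4 cows had 1 array near the level of cow 6983 and 1 array between -0.83 and -0.10. CD9 was at -4.50 and -4.16 in cow 6983, and in the others 1 array lay between -4.41 and -3.47 and the other between -0.90 and -0.35.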

How the results depend on the processing

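Counts of members past the threshold were 0 in the main fit and every alternative run for lactation against prepartum, day 1 against day -30 and day 28 against day 1. Without the replicate block for cow, 0 members had a day effect, as with the pairing by cow. The day effect gave 5 members with array weights and 0 otherwise. The cow effect, with 3 members, gave 0 without centring, 14 with arrays scaled, 1 with liver in Cy3 alone, 0 with liver in Cy5 alone, 1 with clones of at least 1 cow a day, 0 without the cow-days whose pair did not oppose, 26 with array weights and 14 with each cow-day divided by its slope; leaving out 1 cow gave 0 to 6. Read against all clones, these were 3.80% of members and 15.8% of clones in the main fit and 17.7% and 10.4% with arrays scaled. They were 17.7% and 17.4% with division by the slope, and 32.9% and 38.5% with array weights. Of all clones 0% passed without centring, 0% without the cow-days whose pair did not oppose and 0.0726% with liver in Cy5 alone. With liver in Cy3 alone it was 1.27% of members and 13.9% of clones, and with clones of at least 1 cow a day 1.27% and 13.3%. With 1 cow left out, 0% to 15.4% of all clones passed. The dye effect, with 34 members, gave 13 with arrays scaled (16.5%, against 68.5% of all clones). Without centring it gave 41 (51.9%, against 56.3%), where members and all clones were closer. With 1 cow left out it gave 25 to 41 (31.6% to 51.9%, against 66.8% to 72.7%). The rule itself gave 134 clones with liver in Cy5 alone, 69 of them members, 204 at a threshold of -1.0 and 43 at -2.0, and 71 to 84 with 1 cow left out. The median level stayed between -2.17 and -1.97. Division by the slope and leaving out cow-days of low slope were chosen after seeing the data. The causes of these moves were not tested. The number of cows and arrays limits the precision, and no intensities were used.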
